A study of Mus musculus with 5 samples.

Results

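Cluster 5 is a class of 377 genomic regions among the 5670 that the authors listed after mapping Stat3 and the glucocorticoid receptor (GR) in AtT-20 cells, and its members are the entries that carry the class number 5. They make up 6.65% of the list (exact 95% interval 6.01% to 7.33%), and the other 12 classes hold the remaining 5293 regions. AtT-20 is an established mouse pituitary line used as a model of corticotrophs, and it stands for 1 line only. Chromatin immunoprecipitation with sequencing (ChIP-seq) gave 5 libraries: Stat3 after LIF, Stat3 after Dex+LIF, GR after Dex+LIF, GR after Dex, and Control IgG, taken from cells under all 3 treatments. LIF is leukemia inhibitory factor, Dex is dexamethasone, and every treatment lasted 20 min in medium with serum. Each library was made from 5 ChIPs that had been combined, so no condition has a replicate. Both Stat3 libraries used antibodies to total and to phosphorylated Stat3. All positions are of mouse build mm9 and are printed as listed.

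LIF is a cytokine of the interleukin-6 family. It activates JAK kinases, which phosphorylate Stat3, and Stat3 dimers then enter the nucleus and bind DNA. Dexamethasone is a synthetic glucocorticoid that binds GR, which moves into the nucleus and acts on genes by binding DNA itself or through other DNA-bound factors. In corticotrophs, LIF raises and glucocorticoids lower transcription of the gene for pro-opiomelanocortin, the precursor of ACTH, so both factors meet in the control of this cell's main product. Regulatory DNA often holds several bound sites within a short distance, and the spacing of listed regions is one view of that arrangement.

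The class number is a label given by the authors. The sources used here do not tie the number 5 to Stat3, to GR or to a treatment, and no level of binding per library was analysed here. The members could therefore be described by where they lie and by what lies beside them, with clusters 4, 6 and 3 (332, 629 and 2465 regions) measured in the same way. Shares carry exact binomial 95% intervals, which cover counting error only and take each region as independent, although neighbouring regions share a locus. No p-value is given, since regions are not replicates of the experiment. How the libraries were joined and the regions sorted is not given in the sources used here, and whether regions lying very close together share reads was not tested.

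Cluster 5 regions lay closer to other listed regions than the remaining regions as a whole. That the class often has close neighbours was known when it was chosen. The neighbour values here and in what follows describe the class and give no independent support. The median distance to the nearest region of any cluster was 12.9 kb in cluster 5 (95% interval of the median 8.80 to 17.1 kb, n = 377). It was 42.7 kb over all other regions (39.6 to 46.3 kb, n = 5293). Cluster 6 had a median of 19.1 kb (14.2 to 24.1 kb) and cluster 4 a median of 21.4 kb (17.1 to 29.7 kb). The interval of cluster 5 thus overlapped that of cluster 6 and ended just below that of cluster 4. Cluster 3, the largest class, had a median of 50.6 kb (46.4 to 56.2 kb). Among the small classes, cluster 12 was near cluster 5, with 13.9 kb (8.74 to 34.5 kb, n = 59), and cluster 10 was lower, with 9.99 kb (4.04 to 582 kb, n = 6). The lower quartile was 1.51 kb in cluster 5 and 7.29 kb in all other regions, and the upper quartile was 61.8 kb against 148 kb.

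A neighbour is taken here as another listed region at most 10 kb away. Of the 377 cluster 5 regions, 172 had one (45.6%, interval 40.5% to 50.8%), and over the whole list the share was 29.5%. The other 205 members stood alone at that distance. All regions outside cluster 5 together were at 28.3% (27.1% to 29.5%), cluster 6 was at 40.9% (37.0% to 44.8%), and cluster 4 was at 34.3% (29.2% to 39.7%). The intervals of clusters 5 and 6 overlapped, while that of cluster 4 ended just below the one of cluster 5. Cluster 12 was at 39.0% (26.5% to 52.6%), which overlaps cluster 5. Cluster 10 had a higher share, at 50%, but it holds only 6 regions and its interval ran from 11.8% to 88.2%.

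**Figure D1:**
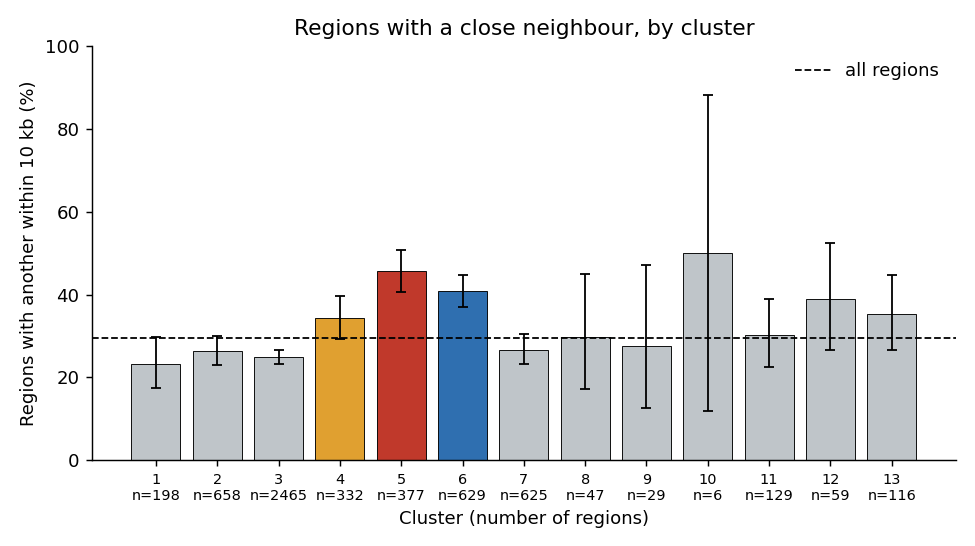
Share of each cluster's regions (vertical axis, percent) with another listed region within 10 kb. Bars are shares, whiskers exact 95% binomial intervals, and the dashed line marks 29.5% for all regions. Cluster 5 (red) stands at 45.6%, cluster 6 (blue) at 40.9% and cluster 4 (orange) at 34.3%.

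The gap between cluster 5 and the rest was relatively widest at the shortest distances. Within 250 bp, 31 members (8.22%, interval 5.66% to 11.5%) had another region, against 2.003% of all other regions (1.64% to 2.42%), 4.93% in cluster 6 and 3.01% in cluster 4. Within 1 kb the share was 22.3% in cluster 5 (18.2% to 26.8%) and 10.03% in all others (9.24% to 10.9%). Within 100 kb it was 83.3% (79.1% to 86.9%) against 67.6% (66.3% to 68.8%). Cluster 5 was above clusters 3, 4 and 6 at each of the 7 distances counted between 250 bp and 100 kb. Its interval overlapped that of cluster 6 at every one of these distances and that of cluster 4 at 500 bp, 50 kb and 100 kb, so the order among the 3 classes is not settled by these counts.

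**Figure D2:**
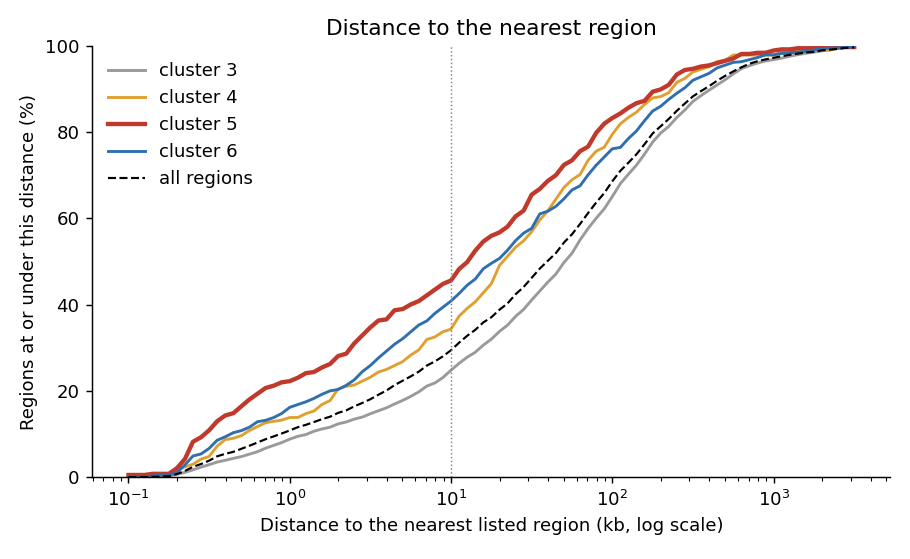
Cumulative share of regions (vertical axis, percent) by distance to the nearest listed region (horizontal axis, kb, log scale) for clusters 3, 4, 5 and 6 and for all regions. The dotted line marks 10 kb, where cluster 5 (red) is at 45.6% and cluster 3 (grey) at 24.8%.

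The members differed widely among themselves. The closest 10% had another region within 0.300 kb, and the most distant 10% had none within 194 kb. The most isolated member lay on chromosome 11 at position 38329840, with its nearest listed region, of cluster 3, 3509 kb away. The next most isolated, named after their values were seen, lay on chromosome 6 at 103264695 (1789 kb) and on chromosome 1 at 46185145 (1263 kb). At the other end was a pair of cluster 5 regions on chromosome 8, at 74304345 and 74304435, which were 90 bp apart and formed the closest pair of the whole list.

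The regions beside cluster 5 came more often from clusters 4, 5 and 6 the closer they lay. Each pair of regions was counted from the side of each cluster 5 member, which gives 278 partners within 10 kb. Of these, 150 (54.0%, interval 47.9% to 59.9%) belonged to clusters 4, 5 or 6, which together hold 23.6% of the list (1338 regions). Partners of regions outside these 3 clusters belonged to them in 26.1% of cases. By single cluster, 66 partners were in cluster 3 (23.7%, against 43.5% of the list), 61 in cluster 6 (21.9%, against 11.1%), 58 in cluster 5 (20.9%, against 6.65%) and 31 in cluster 4 (11.2%, against 5.86%). Cluster 2 gave 23 partners, and clusters 7 and 13 gave 12 each.

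Split by distance, the share of partners in clusters 4, 5 or 6 ran from almost all to the level of the list. It was 90.6% up to 250 bp (29 of 32, interval 74.98% to 98.0%), 61.8% from 250 to 500 bp (21 of 34, 43.6% to 77.8%) and 53.3% from 500 bp to 1 kb (16 of 30, 34.3% to 71.7%). It was 48.3% at 1 to 2 kb, 44.4% at 2 to 5 kb and 46.9% at 5 to 10 kb, and these intervals overlap each other. Beyond 10 kb it was 37.0% (60 of 162, 29.6% to 45.0%) up to 20 kb, 39.6% (111 of 280, 33.9% to 45.6%) up to 50 kb and 32.9% (111 of 337, 27.9% to 38.2%) up to 100 kb. Between 100 and 200 kb it was 25.2% (117 of 465, 21.3% to 29.4%), an interval that holds the 23.6% of the list. Cluster 3 gave the mirror image, with 3.13% of partners up to 250 bp (1 of 32) and 44.3% between 100 and 200 kb (206 of 465). These are shares of partners and do not show that cluster 3 was rare around cluster 5. A cluster 3 region lay within 10 kb of 54 cluster 5 regions (14.3%). The values were 14.5% from cluster 3 itself, 13.3% from cluster 4 and 10.5% from cluster 6.

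**Figure D3:**
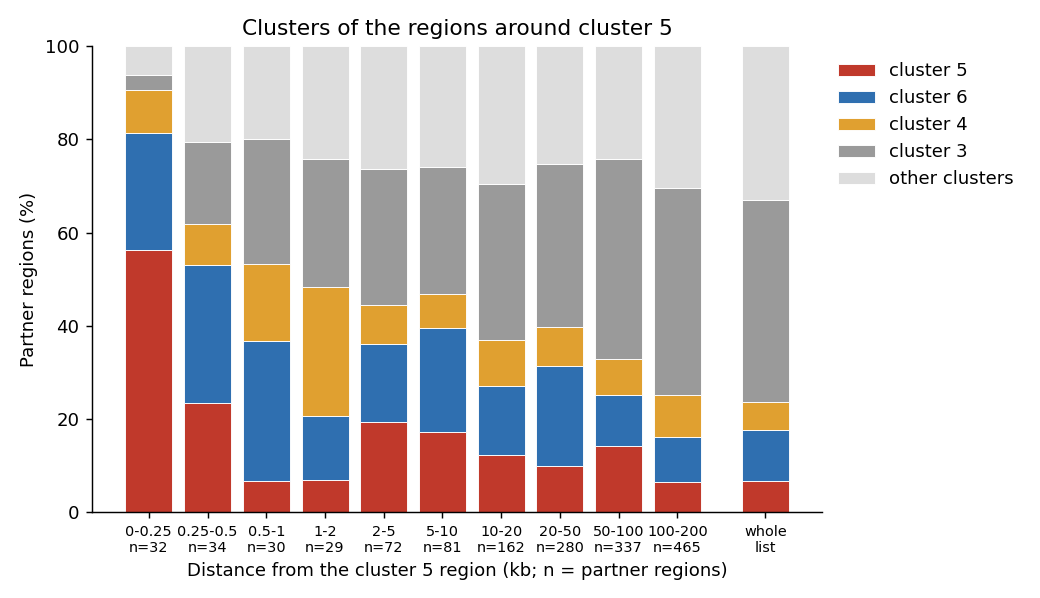
Clusters of the partner regions around cluster 5 members (vertical axis, percent) by distance (horizontal axis, kb), with the makeup of the whole list at the right. Clusters 5, 6 and 4 together fall from 90.6% of 32 partners up to 0.25 kb to 25.2% of 465 partners at 100 to 200 kb.

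The 3 classes did not share this equally at every distance. Cluster 5 itself supplied 18 of the 32 partners up to 250 bp (56.3%, interval 37.7% to 73.6%) and 8 of 34 from 250 to 500 bp, but only 2 of 30 from 500 bp to 1 kb and 2 of 29 from 1 to 2 kb. From 2 to 5 kb it again supplied 14 of 72 (19.4%) and from 5 to 10 kb 14 of 81 (17.3%). A partner pair within cluster 5 is counted from both of its members, so the 18 are 9 pairs. In all, 23 of the 69 pairs of the list up to 250 bp held a cluster 5 region. The intervals of partner shares take both sides of such a pair as independent, so they are too narrow where these pairs are many. Cluster 6 stayed between 13.8% and 30% in each of the 6 distance classes up to 10 kb. Cluster 4 was at its highest from 1 to 2 kb, with 8 of 29 (27.6%, 12.7% to 47.2%). A high own share up to 250 bp was not particular to cluster 5. Cluster 3 supplied 32 of its own 42 partners there (76.2%, interval 60.55% to 87.9%, against 43.5% of the list). Cluster 6 supplied 12 of its own 31 (38.7%, against 11.1%), cluster 4 supplied 2 of 10 and cluster 7 supplied 0 of 7.

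Around clusters 4 and 6 the pooled share of clusters 4, 5 and 6 was near that around cluster 5, but the single classes differed. Up to 250 bp, 23 of the 31 partners of cluster 6 (74.2%, interval 55.4% to 88.1%) and 8 of the 10 partners of cluster 4 (80%, 44.4% to 97.5%) were in clusters 4, 5 or 6. Within 10 kb the shares were 48.8% for cluster 6 (191 of 391, 43.8% to 53.9%) and 44.4% for cluster 4 (79 of 178, 37.0% to 52.0%), and both intervals overlapped that of cluster 5. Around cluster 3 the share up to 250 bp was 9.52% (4 of 42, 2.66% to 22.6%) and within 10 kb it was 21.5% (18.9% to 24.3%). Cluster 3 made up 33.1% of the partners of cluster 4 within 10 kb (26.3% to 40.6%) and 18.2% of those of cluster 6 (14.5% to 22.3%), and the 23.7% of cluster 5 (18.9% to 29.2%) overlapped both. Cluster 7 made up 11.3% of the partners of cluster 6 (8.30% to 14.8%), against 4.32% for cluster 5 (2.25% to 7.42%) and 3.93% for cluster 4 (1.596% to 7.93%). Around cluster 7 the pooled share was 26.7% within 10 kb (21.2% to 32.8%) and 4 of only 7 partners up to 250 bp (57.1%, 18.4% to 90.1%). From 10 to 20 kb it was 45.9% (36.3% to 55.7%), above the 37.0% around cluster 5 (29.6% to 45.0%), with overlapping intervals. The intervals of clusters 3 and 7 lay below those of clusters 4, 5 and 6 at 10 kb.

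Counting the nearest region alone lets each member count once. Where 2 cluster 5 regions are nearest to each other, their pair still enters from both sides. The interval for cluster 5 as the nearest class is therefore too narrow. For the 172 members with a neighbour, the nearest region was of cluster 6 in 46 cases (26.7%, interval 20.3% to 34.0%), of cluster 5 in 39 (22.7%, 16.6% to 29.7%), of cluster 3 in 32 (18.6%, 13.1% to 25.2%) and of cluster 4 in 20 (11.6%, 7.25% to 17.4%). In the 1498 regions outside cluster 5 that had a neighbour, the nearest was of cluster 3 in 38.3% and of cluster 5 in 9.88%. The shares of clusters 3, 5 and 6 as the nearest were similar in cluster 6, while that of cluster 7 was higher (10.5% against 4.65% in cluster 5). For the 257 regions of cluster 6 with a neighbour, the nearest was of cluster 3 in 18.3%, of cluster 5 in 17.9% and of cluster 6 in 25.3%. For the 114 such regions of cluster 4, the counts in the same order were 34 (29.8%), 20 (17.5%) and 16. The intervals of these shares overlapped those of cluster 5. For the 205 members without a neighbour the nearest region was of cluster 3 in 93 cases (45.4%, 38.4% to 52.4%), of cluster 6 in 26 (12.7%, 8.45% to 18.03%), of cluster 4 in 17 (8.29%, 4.91% to 12.9%) and of cluster 5 in 13 (6.34%, 3.42% to 10.6%). Each of these 4 intervals holds the share of that cluster in the list.

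Measured to each class separately, a cluster 5 region had its nearest cluster 6 region at a median of 333 kb. The median was 501 kb from other regions of cluster 6 itself, 549 kb from cluster 4 and 887 kb from cluster 3. The nearest other cluster 5 region lay at a median of 687 kb from cluster 5, 1055 kb from cluster 4, 1076 kb from cluster 6 and 1575 kb from cluster 3. Distances from cluster 5 to cluster 7, by contrast, had a median of 701 kb, between the 619 kb of cluster 6 and the 852 kb of cluster 3. The nearest region of cluster 3, the most numerous class, lay at a median of 77.9 kb from cluster 5 and 88.8 kb from cluster 4. It lay at a median of 131 kb from cluster 6 and 129 kb from other regions of cluster 3 itself.

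Pairs that held cluster 5 members were also tighter. The 249 pairs within 10 kb with at least 1 cluster 5 region had a median distance of 2540 bp, and the 991 pairs with none had 3370 bp. The medians were 1765 bp for the 61 pairs of clusters 5 and 6, 1775 bp for the 31 pairs of clusters 4 and 5, and 1885 bp for the 29 pairs within cluster 5. Pairs of clusters 3 and 5 (66) had a median of 2798 bp, and pairs of clusters 2 and 5 (23) had 4185 bp. Shorter distances were not particular to cluster 5. The medians were 2380 bp for the 10 pairs within cluster 4 and 2458 bp for the 28 pairs of clusters 4 and 6. They were 2755 bp for the 51 pairs within cluster 6 and 3048 bp for the 246 within cluster 3. No interval is given for these medians. In the whole list 69 pairs were at most 250 bp apart. Of these, 23 (33.3%) held a cluster 5 region and 9 (13.04%) joined cluster 5 regions only, while 6 joined cluster 6 regions only and 16 joined cluster 3 regions only. Over all 1240 pairs within 10 kb, 249 held a cluster 5 region and 29 joined cluster 5 regions only. A pair has 2 places for the class, so these shares are not on the scale of the 6.65% of the list.

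Most cluster 5 regions with neighbours sat in small groups. Linking all regions at steps of up to 10 kb gave 710 groups of 2 or more, and 144 of them (20.3%) held cluster 5. In 118 of these groups cluster 5 had 1 region, in 24 it had 2 and in 2 it had 3. Groups of exactly 2 accounted for 102 members, groups of 3 for 38, groups of 4 for 14 and groups of 5 to 7 for 18. Groups of 3 or more were 35.4% of those with cluster 5 (51 of 144) and 19.8% of those without (112 of 566). A group with more regions has more chances to hold any given class, so this difference is no measure of cluster 5 alone. The median span was 2.92 kb with cluster 5 and 3.52 kb without it.

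The makeup of the groups was mixed. Cluster 4 or 6 was present in 68 of the 144 groups (47.2%), against 222 of the 566 groups without cluster 5 (39.2%). These 2 shares are not on equal terms. Groups with cluster 5 had 3 or more regions more often, but cluster 5 itself took at least 1 place in each. That left 212 other regions in the 144 groups that could be of cluster 4 or 6. All 3 classes were present in 6 groups, and 9 held cluster 5 only. In 53 groups every region belonged to cluster 4, 5 or 6. Cluster 3 was present in 51 groups, and in 17 of those cluster 4 or 6 was there too. Among the 212 other regions in the groups, 64 were of cluster 3 (30.2%, against 46.6% of all regions outside cluster 5), 53 of cluster 6, 31 of cluster 4, 24 of cluster 2 and 16 of cluster 7. Clusters 4 and 6 together made up 39.6% of them, against 18.2% of all regions outside cluster 5, grouped or not. Of the 93 groups of exactly 2, cluster 5 was joined by cluster 6 in 22, by cluster 3 in 21, by cluster 4 in 13, by itself in 9 and by cluster 13 in 8.

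The 10 groups with the most cluster 5 regions show how members are arranged, and they were taken by count of cluster 5 regions, then of all regions. The last 3 come from 10 groups of equal size, in order of chromosome. The fullest lay at chr1:74941905-74948665, with 7 regions in 6760 bp. Its cluster 5 regions were at 74942605, 74944785 and 74947745, between regions of clusters 13, 3 and 2, and it held none of cluster 4 or 6. The second group, at chr12:3947625-3954835, held 5 regions, all of them in clusters 4, 5 and 6. They fell into 2 knots 6565 bp apart. One knot had cluster 5 regions at 3947625 and 3947835 and a cluster 6 region at 3948030, with gaps of 210 and 195 bp. The other knot had a cluster 4 region at 3954595 and a cluster 5 region at 3954835, with a gap of 240 bp.

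The third group, at chr10:59432645-59454095, mixed clusters 5 and 6 over 21450 bp: its cluster 5 regions, at 59435515 and 59446435, were separated and flanked by 4 of cluster 6. At chr12:117819390-117838855 the cluster 5 regions, at 117820445 and 117823640, were 3195 bp apart beside regions of clusters 2, 3 and 7. The group at chr2:174083415-174089335 again brought the 3 classes together, with cluster 6 at 174083415, cluster 5 at 174088825 and 174089050, and cluster 4 at 174089335. The last 3 of these were separated by gaps of 225 and 285 bp. At chr3:101600205-101608575 the cluster 5 regions lay 650 bp apart beside clusters 1 and 11, and at chr12:56562270-56566005 they lay 250 bp apart beside clusters 3 and 6.

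In the last 3 of the 10 groups, a cluster 5 region had another region close by, and the second cluster 5 region lay at varying distance. At chr4:138285115-138293085 the close region was of cluster 3 (300 bp) and the second member was 7670 bp further on. At chr5:43537375-43540955 the members were 340 bp apart, with cluster 3 3240 bp further on. At chr8:67103755-67113435 the members were 9370 bp apart, and a cluster 6 region lay 310 bp beyond the second. Over the 10 groups, cluster 4 or 6 was present in 5 and cluster 3 in 5.

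**Figure D4:**
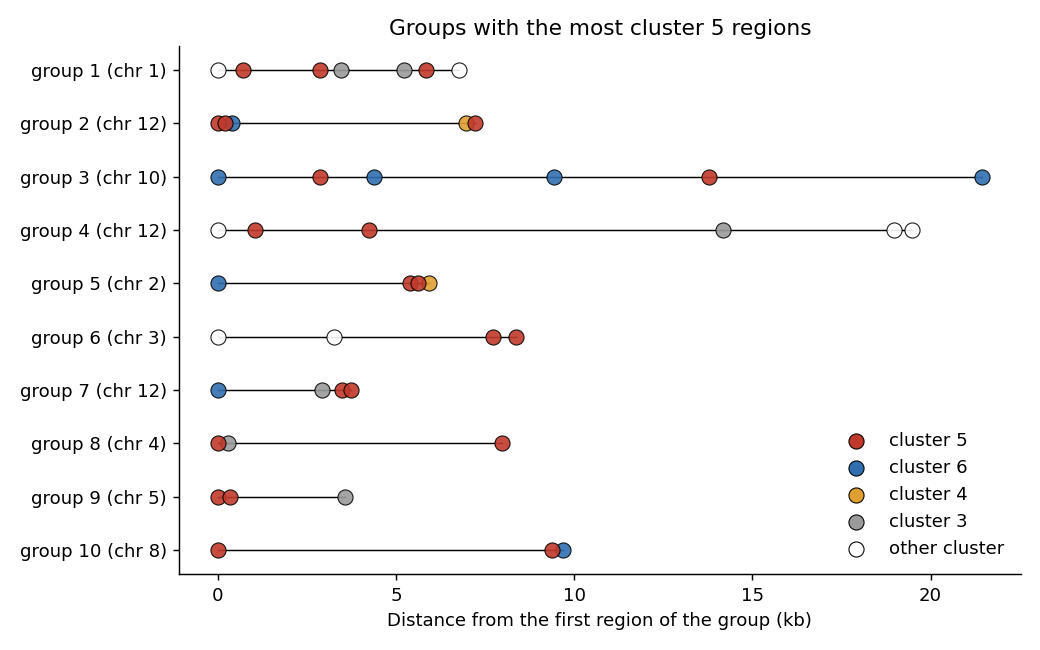
The 10 groups with the most cluster 5 regions, in the order of the text. Each circle is a listed region placed by its distance from the first region of its group (horizontal axis, kb), coloured by cluster. Tight pairs of cluster 5 regions (red), such as those 210 bp apart in group 2, stand beside wide ones such as those 9370 bp apart in group 10.

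The 9 pairs within cluster 5 at up to 250 bp were taken by their distance. After the pair at 90 bp, the next were at chr12:3947625-3947835 (210 bp), chr6:36948990-36949205 (215 bp), chr1:137123915-137124135 (220 bp) and chr2:174088825-174089050 (225 bp). The remaining 4 of the 9 pairs up to 250 bp were 225, 235, 245 and 250 bp apart. Thus 8 of the 9 were over 200 bp apart, as were 48 of the 69 pairs up to 250 bp in the list as a whole. Of the 21 pairs at most 200 bp apart, 7 held a cluster 5 region (33.3%, the same share as among the 69 pairs up to 250 bp).

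At a wider scale, the 100 kb window with the most cluster 5 regions lay on chromosome 8, where 4 fell between 124372590 and 124437720. It held 8 regions in all, none of them of cluster 4 or 6 and 1 of cluster 3. Windows with 3 members each included chr2:174490980-174557605, where no other region was listed, and chr10:59384155-59446435, where 4 of the 8 regions were of cluster 6. The windows were chosen after their values had been seen. No gene, exon or intron is stated for any position, since an annotation of mm9 was not used here.

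Cluster 5 regions were found on all 20 chromosomes. Chromosome 11 held the most, with 32 (8.49% of the class), and chromosomes 2, 7 and 12 held 30 each. The largest excess over other regions was on chromosome 12, with 7.96% of cluster 5 (interval 5.43% to 11.2%) against 4.50% of all other regions, 5.72% of cluster 4 and 5.56% of cluster 6. Chromosome 8 followed, with 29 members (7.69%, 5.21% to 10.9%) against 4.89%. Both intervals exclude the value of the other regions, but these are the most extreme of 20 chromosomes. With each linked group counted once, chromosome 8 was at 7.16% (25 of 349, 4.69% to 10.4%) against 4.75%, which its interval then holds, and chromosome 12 at 7.45% (26 of 349, 4.92% to 10.7%) against 4.51%. Chromosomes 13, 14, 17 and X held 8, 3, 5 and 2 members, and on each of the 4 the interval of cluster 5 holds the share of the other regions, such as 2.12% (0.920% to 4.14%) against 3.61% on chromosome 13. The copy number of chromosomes in AtT-20 cells was not used here.

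Close neighbours of cluster 5 were not a matter of 1 or a few chromosomes. On 18 of the 20 chromosomes the share of members with a neighbour was above that of the other regions there. The 2 exceptions were chromosome 17 (1 of 5, 20% against 20.3%) and the X chromosome (0 of 2, against 5.63%). On the 15 chromosomes with at least 10 members the share was higher on each, and it ran from 27.8% on chromosome 9 (5 of 18) to 75% on chromosome 19 (9 of 12). The difference was large on chromosome 1 (42.3% against 19.03%) and chromosome 8 (62.1% against 35.9%), and small on chromosome 2 (36.7% against 35.9%) and chromosome 10 (38.1% against 36.8%). On chromosome 11, where the other regions had their highest share, the values were 68.8% against 45.2%.

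**Figure D5:**
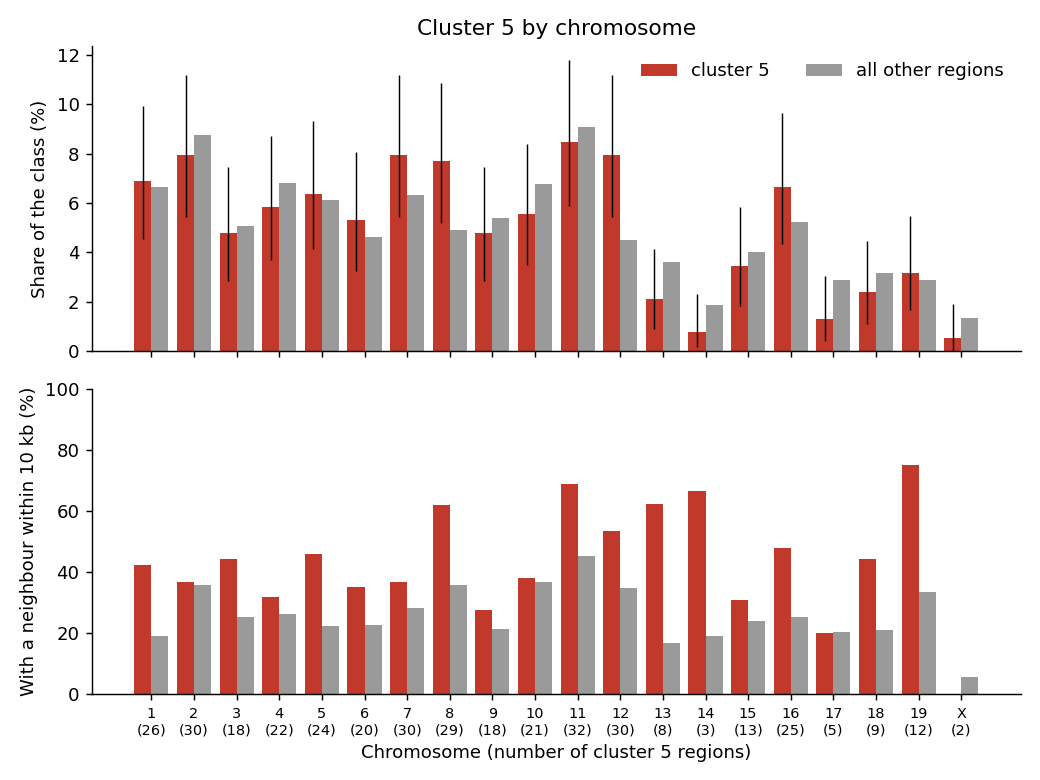
Upper panel, share of cluster 5 (red, with exact 95% intervals) and of all other regions (grey) on each chromosome, in percent. Lower panel, share of each with another region within 10 kb, in percent. Chromosome 12 holds 7.96% of cluster 5 against 4.50% of other regions, and the red bar exceeds the grey on 18 of 20 chromosomes in the lower panel.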

How the data were processed

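Data were 5 ChIP-seq libraries of AtT-20 cells, read as 36 bp reads per the labels' protocols. Per the submitters' processing notes, Bowtie and MACS 1.3.7.1 were used on build mm9. Not given in the sources used here are Bowtie's version, thresholds, use of IgG, and the joining and sorting of regions. The deposited list, 1 for the 4 ChIP libraries, has a position and a class number from 1 to 13 per region, both other than a measured level, as the authors gave them. All 5670 entries are points at multiples of 5 bp. Sequencing depth is unknown here. Region numbers follow genome order up to 5874, and 204 (3.47%) have no entry and were not analysed here.

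Distances, pairs and groups were computed with Python 3.11.15, pandas 2.3.3 and scipy 1.17.1. The code was tested on simulated data. Shares have exact Clopper-Pearson 95% intervals, medians exact order-statistic intervals. Named regions are the 10 groups linked at 10 kb with the most cluster 5 regions (ties by size, then chromosome and position), the 5 closest cluster 5 pairs and the most isolated member. Other isolated members, the further close pair distances and the 100 kb windows were chosen after their values were seen. The rule's genes and sequences, and the motif, base composition and gene start analyses, need mm9 and were not run. The class, the rule and the distances were chosen with earlier results of these data known. Among these results was that cluster 5 often has close neighbours.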

Additional observations from a re-analysis of the deposited data

How the results depend on the processing

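The share of cluster 5 regions with a neighbour stayed above that of all other regions under each of the 12 alternatives run, of which 4 were chosen after seeing the data. It changed with the distance: 22.3% within 1 kb (10.03% in all other regions), 39.0% within 5 kb (21.2%), 72.4% within 50 kb (53.1%) and 83.3% within 100 kb (67.6%). With pairs over 1 kb apart only, it was 33.2% (21.8%). If every region beside a missing region number had a neighbour there, it would be 51.5% (32.9%). The share of partners in clusters 4, 5 or 6 was 68.8% within 1 kb, 44.6% within 50 kb, 40.9% within 100 kb and 46.2% with pairs over 1 kb apart only, each above that around regions of other clusters (24.3% to 27.6%). Leaving out the densest stretch of chromosome 11, the X chromosome, chromosome 8, chromosome 12 or the 10 named groups, and merging same-cluster regions within 1 kb, left both shares inside their intervals. Merging gave 363 members with a median distance of 14.8 kb. Counting each group once gave 349 members, 7.45% of them on chromosome 12 (4.51% of the other regions) and 7.16% on chromosome 8 (4.75%), where the interval then holds the other regions' value. Other settings for motifs, base composition and gene starts need mm9 and were not run. No paired analysis was possible because every condition has a single library and 1 shared list. The unknown depth limits how many regions could be listed.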

Other observations

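Cluster 5 regions lay beside a missing region number in 30 of 377 cases (7.96%, interval 5.43% to 11.2%). The share was 5.67% of all other regions (300 of 5293), which that interval holds. Of these 30, 22 had no listed neighbour within 10 kb.

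Within the list the cluster 5 regions are not in genome order, and the meaning of their order is not given in the sources used here. With that order cut into 4 parts, 44.2%, 44.7%, 40.4% and 53.2% of members had a neighbour (42 of 95, 42 of 94, 38 of 94 and 50 of 94), with overlapping intervals (34.02% to 54.8%, 34.4% to 55.3%, 30.4% to 51.05% and 42.6% to 63.6%). The members of the 9 cluster 5 pairs up to 250 bp apart stood a median of 49 places from each other (24 to 248), and those of the 20 pairs over 250 bp and up to 10 kb a median of 101 places (12 to 278). This description was added after the list had been seen.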
